A study of Mus musculus with 10 samples.

Results

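The transcripts described here encode 44 regulators of chromatin and transcription elongation that surround the MLL protein, out of 18193 genes measured. They were chosen by name as subunits of the MLL complex, partners and readers of the MLL fusion, elongation factors, Polycomb proteins, histone demethylases and other chromatin enzymes. All 44 were measured, each by the brightest of the probe sets (groups of short probes for 1 transcript) that the platform annotation gives to that gene alone. The cells were murine leukaemia cells, numbered 4166, that carry the Mll-AF9 fusion. Control cells carried an empty lentiviral vector (5 arrays), and the compared cells carried a lentivirus with an shRNA against Meis1 (5 arrays). Both groups were grown in IMDM with 15% FBS and 2 ng/ml IL-3, selected with puromycin and profiled at 48 h after transduction. Samples are paired by number in the labels. The groups come from 1 cell line, with 1 shRNA construct described, and the control vector was empty. The sources used here do not say how the fusion was introduced.

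MLL (Kmt2a) is a histone methyltransferase that marks active promoters on lysine 4 of histone H3, together with a core of Wdr5, Rbbp5, Ash2l and Dpy30 and the tethering proteins menin and LEDGF. In the leukaemic fusion, the carboxyl end of MLL is replaced by a partner such as AF9 (Mllt3), which recruits the super elongation complex and the histone H3 lysine 79 methyltransferase Dot1l to genes such as the Hoxa cluster and Meis1. Polycomb complexes oppose this by methylating lysine 27 of histone H3 (PRC2) and ubiquitylating histone H2A (PRC1), and demethylases such as Kdm6a and Kdm6b remove the lysine 27 mark.

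Meis1 itself fell in every pair, with a difference of -1.09 log2 units between shRNA and control (limma paired fit, SE 0.08, adjusted p = 0.000636). Markers of myeloid cells were present, with 11 of 12 at a mean log2 level above 5, and none of 8 erythroid and megakaryocytic, 7 fibroblast or 4 endothelial markers reached that level. Ighm was the 1 of 9 lymphoid markers above it, and Mcpt8 and Gata2 were the 2 of 6 mast cell and basophil markers. The mean log2 level of the myeloid list was 8.78 to 9.53 in the control arrays and 8.76 to 9.34 with the shRNA, and that of the endothelial list 2.65 to 3.08 and 2.38 to 2.86. Among these markers Ptprc, Elane, Kit and Pecam1 were called lower and none higher. RNA integrity was read from the 3 prime over 5 prime log2 ratio of the array controls for Gapdh and actin, here called the integrity ratio, which was 0.28 ± 0.06 (SD, n = 5) in the controls and 0.37 ± 0.02 (SD, n = 5) with the shRNA. Within pairs 1 to 5 it was higher with the shRNA by 0.11, 0.06, 0.09, 0.19 and 0.01. Since it was higher in every pair, its part and that of the shRNA cannot be told apart in this design. Its part in the results was not tested beyond the values given with it below. In bulk RNA such as this, a lower level in each cell and fewer cells that express a gene cannot be told apart.

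Most of the 44 regulators showed only small differences. Kdm6b, a lysine 27 demethylase, and Mllt6, a reader protein and known MLL partner, rose, while Rbbp5, a core subunit of the MLL complex, and Ctr9, a subunit of the PAF1 elongation complex, fell. These were the 4 of 44 members (9.09%) past an adjusted p of 0.05 by limma, against 4.06% of all 18193 genes, 2 lower against 2.98% and 2 higher against 1.08%. Most members were bright, and all 4 were among the 37 with a mean log2 level above 5 (10.8% of them), where 8.75% of the 6721 genes of that brightness were called. At an unadjusted p under 0.05 there were 10 members (22.7%, 7 lower and 3 higher), against 18.0% of all genes. In a fit limited to mean log2 levels above 5, 9 of 37 members and 2369 of 6721 genes reached that p. There 6 of the 37 members passed the adjusted threshold, against 19.4% of genes. The share of members called thus lay close to that of equally bright genes in the reported fit, and was not above it in the limited fit. The difference was below 0 for 27 members and above 0 for 17, and its size was under 0.3 on the log2 scale for 38. The median log2 change was -0.049 over the 44 members, 0.0040 over all genes and -0.041 over the brighter genes. All 5 pairs had the same direction in 11 members (25.0%), 6 lower and 5 higher, against 17.8% of all genes. This count was not set against genes of equal brightness. After quantile normalization the 4 calls were Rbbp5 lower and Mllt6, Aff4 and Kdm6b higher, where 3.80% of all genes were called. There 55.3% of the calls over all genes were lower, against 73.5% as reported. In an unpaired fit 2 members passed, Aff4 and Kdm6b, against 2.75% of all genes.

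**Figure D1:**
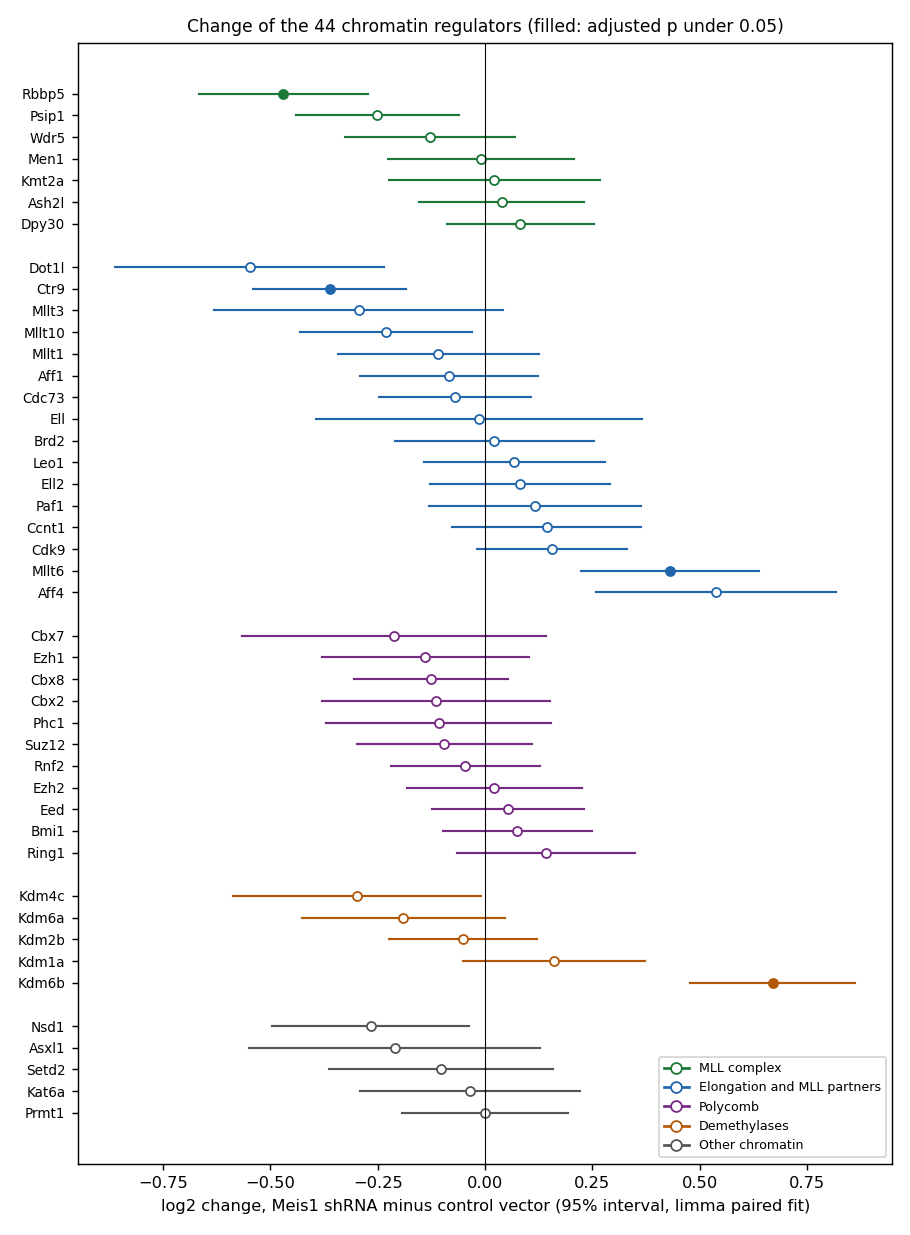
Log2 change (shRNA minus control vector, horizontal axis) of each of the 44 members, grouped and coloured by role, with its 95% interval from the paired limma fit (n = 5 pairs). Filled points mark the 4 members past an adjusted p of 0.05, Rbbp5 and Ctr9 to the left of 0 and Mllt6 and Kdm6b to the right, and the 11 Polycomb members all have intervals that include 0.

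In the MLL complex, 1 of 7 members passed, and the median log2 change of the 7 was -0.0094, with values from -0.47 to 0.08. Rbbp5, which helps Wdr5 and Ash2l to activate the methyltransferase domain, fell 1.39-fold. Its intensities in control arrays 1 to 5 were 84.72, 69.64, 73.29, 99 and 83.21, and in their shRNA partners 62.81, 45.75, 62.53, 68.49 and 56.69. All 5 shRNA arrays thus lay below all 5 control arrays, though the highest shRNA value and the lowest control value were close. The log2 change was -0.47 (limma adjusted p = 0.0223, SE 0.09), and the change was -0.55 in pair 5, where the integrity ratio differed by 0.01. Rbbp5 has 1 probe set on the array. Its adjusted p was 0.0764 without the replicate block, 0.1 in the unmoderated test and 0.0781, 0.0813 and 0.0998 without pairs 1, 2 and 4. With the integrity ratio in the model the change was -0.49 (adjusted p = 0.661).

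The other MLL complex members did not pass. Psip1 encodes LEDGF, the chromatin tether of menin and MLL, and read 564.8, 495, 538.9, 512.6 and 510.5 in the controls against 423.6, 459.3, 482.6, 437.1 and 402.9 with the shRNA. The groups did not overlap, which held for 5 of the 44 members (11.4%) and for 4.98% of all genes. No share over equally bright genes was taken for this. Its log2 change was -0.25 (limma adjusted p = 0.151, SE 0.08), but its other bright probe sets were at -0.039 and -0.085. It passed with trend and robust eBayes (0.0385) and among genes with a mean log2 level above 5 (0.0411). Dpy30, a small core subunit and the brightest member of this group, read 1445, 1466, 1350, 1393 and 1383 in the controls and 1567, 1550, 1454, 1388 and 1494 with the shRNA. These overlapped, with a log2 change of 0.08 (95% interval -0.09 to 0.25). Menin (Men1) was at -0.0094 (95% interval -0.23 to 0.21), Ash2l at 0.039 and Wdr5 at -0.13. The probe sets of Men1 differed, since its second, at a mean log2 level of 4.92, was at -0.47 (limma adjusted p = 0.163 across probe sets, lower in 4 of 5 pairs), and their mean was at -0.22. The second probe set of Wdr5, with a mean log2 level of 6.11, was at -0.55 (limma adjusted p = 0.135 across probe sets), so that the 2 probe sets of this gene differed in size. Kmt2a was dim, at a mean log2 level of 4.43, and its log2 change was 0.022 (95% interval -0.22 to 0.27). Its second probe set, at a mean log2 level of 3.93, was at 0.36 and higher in 5 of 5 pairs (limma adjusted p = 0.140 across probe sets). Whether its probe sets, or those of Mllt3, also read the fusion transcript is not known here.

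The letters TGACAG, a binding motif of MEIS proteins, were searched on both strands of promoter windows from RefSeq (GRCm38.p6), which run from 250 bases before to 50 bases after a gene's start. Of the 44 members, 37 had 1 or more windows, and the called members Kdm6b and Ctr9 had none. Some genes have several windows, and a gene counted as holding a motif if any of its windows did. Shares were not adjusted for the number of windows per gene. The motif was present in 10 of the 37 members (27.0%, Men1, Dpy30, Mllt1, Mllt3, Ell, Ell2, Leo1, Ezh2, Ezh1 and Prmt1), against 21.6% of 27025 genes. None of these 10 passed the threshold, but of the called members only Rbbp5 and Mllt6 could be searched. The share called among all genes with the motif was not taken, so no conclusion is drawn from this. A pair of windows from the MLL complex is printed to set a member that fell beside one that did not pass. Each is shown 5′ to 3′ on the plus strand, ending at the annotated start of the gene, with matches to the motif in either orientation in capitals. The window of Rbbp5 is chr1:132477117-132477347 (231 bases) and that of Men1 is chr19:6334729-6334978 (250 bases).
Rbbp5: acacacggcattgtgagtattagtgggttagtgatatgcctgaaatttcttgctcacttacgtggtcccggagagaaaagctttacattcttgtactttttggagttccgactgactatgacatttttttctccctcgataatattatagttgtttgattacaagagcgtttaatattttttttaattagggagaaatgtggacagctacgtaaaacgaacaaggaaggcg
Men1: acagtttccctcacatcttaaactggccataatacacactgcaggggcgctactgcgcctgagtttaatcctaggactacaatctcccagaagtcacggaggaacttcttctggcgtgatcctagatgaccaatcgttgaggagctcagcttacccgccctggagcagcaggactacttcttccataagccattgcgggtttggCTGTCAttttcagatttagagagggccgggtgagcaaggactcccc
Rbbp5 fell and its printed window holds no match, while the brightest probe set of Men1 was at -0.0094 and the printed window of that gene holds 1. Matches to TTCCCGC, a motif of E2F proteins, were in 3 members (8.11%, Suz12, Asxl1 and Prmt1) against 5.29% of genes, and TGATTGA, a PBX motif, was in 0 of 37 against 3.09%. CCAAT was in 16 members (43.2%) against 41.1%, and TGGGCGG, an SP motif, in 8 (21.6%) against 11.8%. No motif contains the letters of another. A match is a description of the sequence and does not show binding.

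Among 16 MLL partners and elongation members, 1 fell, 1 rose and 14 did not pass, and the median log2 change was 0.0034, with values from -0.55 to 0.54. The widest differences of the whole set other than that of Kdm6b were here. Mllt6 (AF17), a PHD finger protein related to Mllt10, rose 1.35-fold. It read 161.2, 195.8, 204.7, 224.2 and 177.7 in the controls and 253.4, 229.8, 281.3, 323.5 and 216.1 in their shRNA partners. Each shRNA array was above its own partner, but the groups overlapped between shRNA array 5 and control array 4. The log2 change was 0.43 (limma adjusted p = 0.038, SE 0.09). It was 0.28 in pair 5 and 0.27 with the integrity ratio in the model (adjusted p = 0.864). As the mean of its 3 probe sets, of which the other 2 were dim, it was 0.09. The call was lost in 10 of 14 alternatives. The adjusted p was 0.104 without the replicate block, 0.132 in the unmoderated test, and 0.135, 0.0645, 0.116 and 0.15 without pairs 1, 2, 3 and 4.

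Aff4, the scaffold of the super elongation complex, just missed the threshold. It read 61.03, 67.05, 46.4, 55.01 and 60.85 in the controls and 70.53, 82.62, 86.79, 99.21 and 81.48 with the shRNA, without overlap. The log2 change was 0.54 (limma adjusted p = 0.0501, SE 0.12, higher in 5 of 5 pairs), and the adjusted p was 0.0312 without the replicate block and 0.0184 with a random one. With the integrity ratio in the model the change was 0.32 (adjusted p = 0.88), and as the mean of its 3 probe sets it was 0.13. Aff1, its relative and the partner in the fusion MLL-AF4, was at -0.08 (95% interval -0.29 to 0.12). Of the kinase P-TEFb, which the complex brings to paused polymerase, the subunit Cdk9 read 996.7, 967.1, 953.3, 1028 and 885.2 in the controls and 1116, 1055, 1055, 1079 and 1071 with the shRNA. The groups did not overlap, yet the difference was small, at 0.16 (limma adjusted p = 0.339, SE 0.08). Its cyclin Ccnt1 was at 0.14. The elongation factors Ell and Ell2 were at -0.015 and 0.081, and the acetyl-histone reader Brd2 at 0.021.

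**Figure D2:**
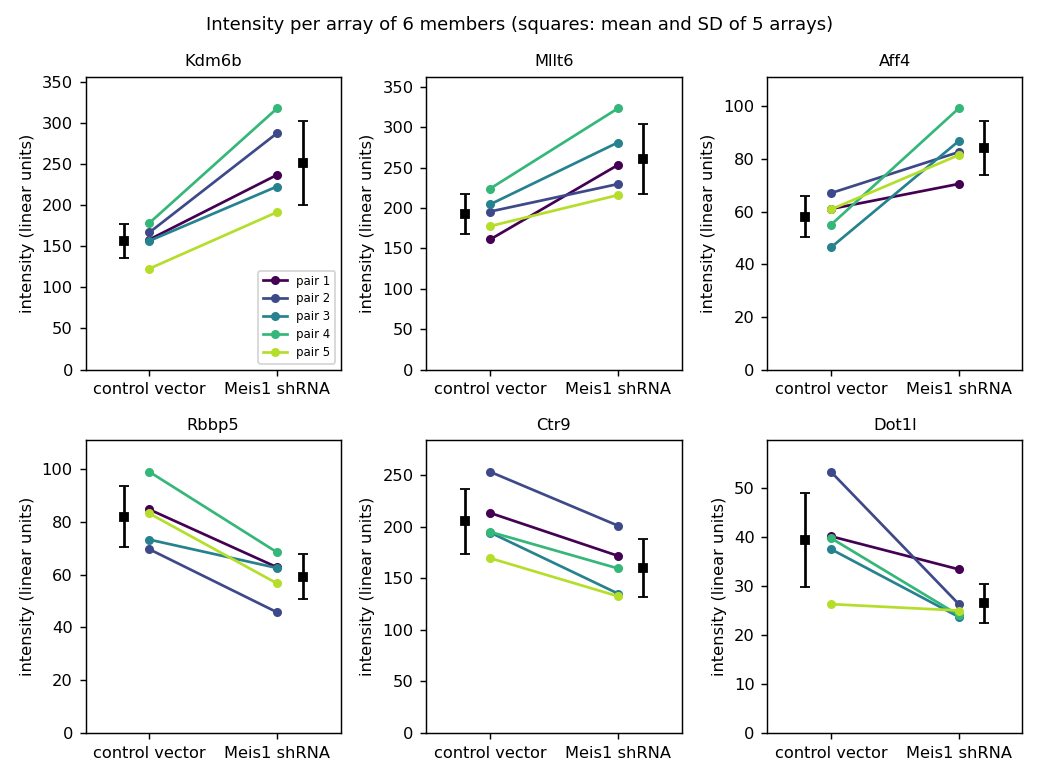
Intensity (linear units, axis from 0) of 6 members in the 5 control arrays and the 5 shRNA arrays, with lines joining pairs and squares for the mean with its SD (n = 5). Kdm6b, Mllt6 and Aff4 are higher and Rbbp5, Ctr9 and Dot1l lower in each of the 5 pairs, while pair 5 of Dot1l is nearly level, at 26.34 and 25.04.

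Dot1l, the lysine 79 methyltransferase, had the lowest log2 change of the 44 members, and did not pass. It read 40.22, 53.41, 37.59, 39.85 and 26.34 in the controls and 33.47, 26.38, 23.75, 24.1 and 25.04 with the shRNA, with overlap at control 5. The log2 change was -0.55 (limma adjusted p = 0.067, SE 0.14, lower in 5 of 5 pairs). The size varied widely between pairs, at -0.27, -1.02, -0.66, -0.73 and -0.07 in pairs 1 to 5. The integrity ratio differed by 0.11, 0.06, 0.09, 0.19 and 0.01 in the same pairs. Any link between the 2 was not tested. With the integrity ratio in the model the change was -0.37 (adjusted p = 0.884). Dot1l passed without pair 5 (-0.67, adjusted p = 0.0285), with trend and robust eBayes (0.0374) and when its probe sets were averaged (-0.41, 0.0445). Its recruiters did not pass either. Mllt10 (AF10) was at -0.23 (limma adjusted p = 0.208), Mllt1 (ENL) at -0.11 and Mllt3 (AF9) at -0.29 (adjusted p = 0.349). The brightest Mllt3 probe set was dim, with control intensities of 11.72 to 14.91.

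The PAF1 complex rides with RNA polymerase II and binds MLL. Of its subunits among the members, Ctr9 fell 1.29-fold and the other 3 did not pass. Rtf1, a further subunit that is not a member, did not pass either, at -0.33 (limma adjusted p = 0.0952, lower in every pair). Ctr9 read 213.5, 253.4, 194.5, 195.1 and 169.6 in the controls and 171.9, 201.2, 135.3, 159.7 and 132.7 with the shRNA. The groups overlapped, while each shRNA array was below its own partner. The log2 change was -0.36 (limma adjusted p = 0.0416, SE 0.08), with pair differences from -0.52 to -0.29, and it was -0.35 in pair 5. With the integrity ratio in the model it was -0.40 (adjusted p = 0.705). The 4 other Ctr9 probe sets were at -0.31, -0.25, -0.10 and -0.28, with mean log2 levels of 5.67, 4.68, 2.96 and 2.79. None of them passed (limma adjusted p from 0.269 to 0.780 across probe sets). The call was lost in 11 of 14 alternatives, among them each pair dropped in turn (adjusted p from 0.0643 to 0.137), no replicate block (0.225), a random one (0.13) and quantile normalization (0.11). Cdc73, the parafibromin subunit, was at -0.07, Leo1 at 0.07 and the founding subunit Paf1 at 0.12. A dim probe set of Cdc73, at a mean log2 level of 3.80, went the other way, and was the only 1 of the 67 further probe sets of the members to pass over all probe sets, of which 2.48% did. It read 12, 10.4, 8.718, 14.64 and 7.039 in the controls and 23.14, 13.39, 17.1, 29.89 and 16.02 with the shRNA, a log2 change of 0.90 (limma adjusted p = 0.00784). The bright Cdc73 probe set, at a mean log2 level of 8.89, had a 95% interval of -0.25 to 0.11.

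None of the 11 Polycomb members passed by limma, and none reached an unadjusted p under 0.05 by its brightest probe set. None passed under any of the 14 alternative settings in which it was tested. Cbx2, Cbx7 and Cbx8 were tested in 13, being too dim for the setting limited to mean log2 levels above 5. Their median log2 change was -0.095, with values from -0.21 to 0.14. In PRC2, the methyltransferase Ezh2 was at 0.022 (95% interval -0.18 to 0.22), its relative Ezh1 at -0.14, the lysine 27 reader Eed at 0.053 and the stabilising subunit Suz12 at -0.10. Eed, the brightest of the group, was also the steadiest member in the controls. It read 1044, 1046, 1108, 1055 and 1022 there and 1130, 1087, 1092, 1027 and 1137 with the shRNA, groups that overlapped. The 95% interval of its change was -0.12 to 0.23. The 2 other bright probe sets of Suz12 were at -0.25 and -0.33 (limma adjusted p = 0.227 and 0.115 across probe sets), lower than its brightest. Both were lower in every pair, with unadjusted limma p of 0.021 and 0.0057.

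In PRC1, the RING finger ligases Ring1 and Rnf2 were at 0.14 and -0.047, and Bmi1, the self-renewal factor that activates them, at 0.08 (95% interval -0.10 to 0.25). Phc1, the Polyhomeotic subunit, was at -0.11. The chromodomain readers Cbx2, Cbx7 and Cbx8 were at -0.11, -0.21 and -0.13. All 3 were dim, at mean log2 levels of 4.83, 2.82 and 4.38. Cbx7 read 7.816, 6.608, 8.331, 11.03 and 5.4 in the controls and 7.214, 5.859, 6.866, 6.031 and 7.014 with the shRNA. Its pair differences ran from -0.87 to 0.38, the widest spread among the 3.

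Of the 5 demethylases, 1 rose and 4 did not pass. Kdm6b (JMJD3) is an inducible lysine 27 demethylase of myeloid and inflammatory gene programmes. It read 158.1, 166.7, 156.5, 178.2 and 122.7 in the controls and 236.7, 287.4, 222.6, 317.5 and 191.4 in their shRNA partners. Every shRNA array was above every control array, and the group means were 156 ± 20.7 and 251 ± 50.8 (SD, n = 5), a 1.59-fold rise. The log2 change was 0.67 (limma adjusted p = 0.00472, SE 0.08, 95% interval 0.48 to 0.86), with pair differences from 0.51 to 0.83. It was 0.64 in pair 5 and 0.60 with the integrity ratio in the model (adjusted p = 0.537). The call held with each pair dropped in turn (0.0105 to 0.0272) and without the replicate block (0.0295), but not in the unmoderated test (0.0628) or when its probe sets were averaged (0.33, adjusted p = 0.0604). Its second probe set, at a mean log2 level of 4.49, was at 0.41 (limma adjusted p = 0.230 across probe sets), with pair 2 at -0.06. The third, at a mean log2 level of 2.10, was at -0.09.

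Kdm6a (UTX), the X-linked relative of Kdm6b, was at -0.19 (95% interval -0.43 to 0.046). Kdm1a (LSD1), which removes methyl groups from lysine 4 and is a drug target in this leukaemia, was at 0.16, higher in 5 of 5 pairs (limma adjusted p = 0.427). Kdm2b, which recruits a variant PRC1 to CpG islands, read 1097, 1080, 1076, 1070 and 998.7 in the controls and 1062, 962.9, 1054, 1059 and 998 with the shRNA. These groups overlapped and the log2 change was -0.052 (95% interval -0.22 to 0.12). Kdm4c, a lysine 9 demethylase, was at -0.30 (adjusted p = 0.261), with the sign turned in pair 4.

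**Figure D3:**
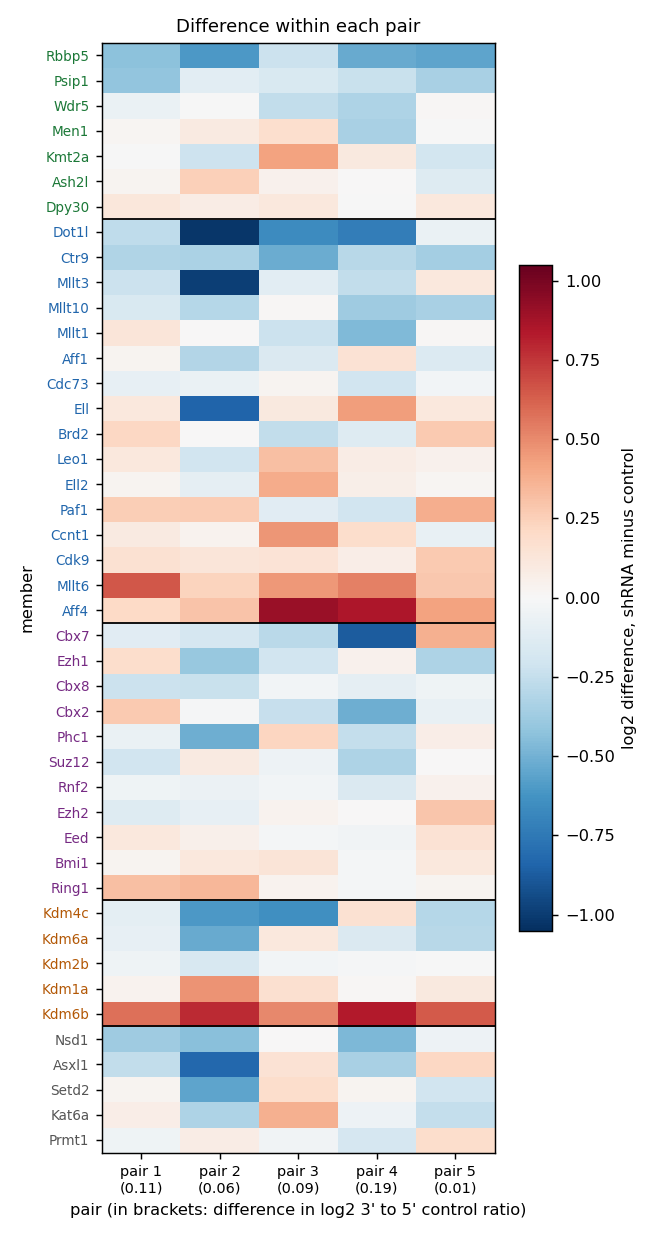
Log2 difference (shRNA minus control, colour scale) of each of the 44 members (rows, by role) within each of the 5 pairs (columns), with the difference of the log2 integrity ratio in brackets. The rows of Kdm6b, Mllt6 and Aff4 are red and those of Rbbp5, Ctr9 and Dot1l blue in all 5 columns, while most Polycomb rows change sign between pairs.

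All 5 of the other chromatin enzymes and cofactors were at or below 0, and none passed by limma (1 at an unadjusted p under 0.05, and none past the adjusted threshold in any alternative setting in which it was tested, 13 for Nsd1 and 14 for the others). The lysine 36 methyltransferase Nsd1 was dim and had the lowest value of them. It read 11.47, 11.01, 8.727, 13.83 and 11.24 in the controls and 8.88, 8.123, 8.765, 9.958 and 10.81 with the shRNA, groups that overlapped (log2 change -0.27, limma adjusted p = 0.204). Prmt1, the main arginine methyltransferase and the brightest of the group, read 2622, 2459, 2429, 2590 and 2358 in the controls and 2537, 2596, 2364, 2287 and 2681 with the shRNA. Its log2 change was -0.00055 (95% interval -0.19 to 0.19). The lysine 36 trimethylase Setd2 was at -0.10, the deubiquitylase cofactor Asxl1 at -0.21 and the acetyltransferase Kat6a (MOZ) at -0.036. Asxl1 ranged from -0.82 in pair 2 to 0.22 in pair 5.

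By role, the median log2 change was -0.0094 in the MLL complex, 0.0034 in the elongation group, -0.095 in Polycomb, -0.052 in the demethylases and -0.10 in the other enzymes. The SD of these medians over the 5 pairs was 0.11, 0.070, 0.051, 0.10 and 0.22, and in each group the medians of single pairs took both signs. The groups differ in size and no test was made between them.

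Related members were compared within arrays in 7 pairs of genes, with the difference between their 2 log2 changes in each pair of samples. A permutation test that flips the signs of the 5 differences (exact, two-sided) cannot give a p below 0.063. Kdm6a lay below Kdm6b by 0.86 (difference -0.86, SD 0.35, 95% interval -1.29 to -0.43), in 5 of 5 pairs. Mllt10 lay below Mllt6 (difference -0.66, SD 0.19, 95% interval -0.90 to -0.42), and Aff4 lay above Aff1 (difference 0.62, SD 0.31, 95% interval 0.23 to 1.01), each in 5 of 5 pairs. All 3 gave the smallest possible p of 0.063 (exact permutation test), or 0.146 adjusted over the 7. The intervals of these 3 of 7 pairs exclude 0, but were not adjusted over the 7. With 5 pairs of samples the exact test could not pass the threshold, so it does not decide whether the changes were unequal. Each of the 3 holds Kdm6b, Mllt6 or Aff4, so these differences are not separate evidence from the changes given above. As means of all probe sets those changes were 0.33, 0.09 and 0.13.

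The other 4 pairs had intervals that include 0. Ezh2 minus Ezh1 was 0.16 (95% interval -0.28 to 0.60), Mllt3 minus Mllt1 was -0.19 (-0.81 to 0.44), Ell2 minus Ell was 0.10 (-0.44 to 0.63) and Rnf2 minus Ring1 was -0.19 (-0.42 to 0.042). The intervals of Mllt3 minus Mllt1 and Ell2 minus Ell still reach sizes seen in the first 3 pairs.

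**Figure D4:**
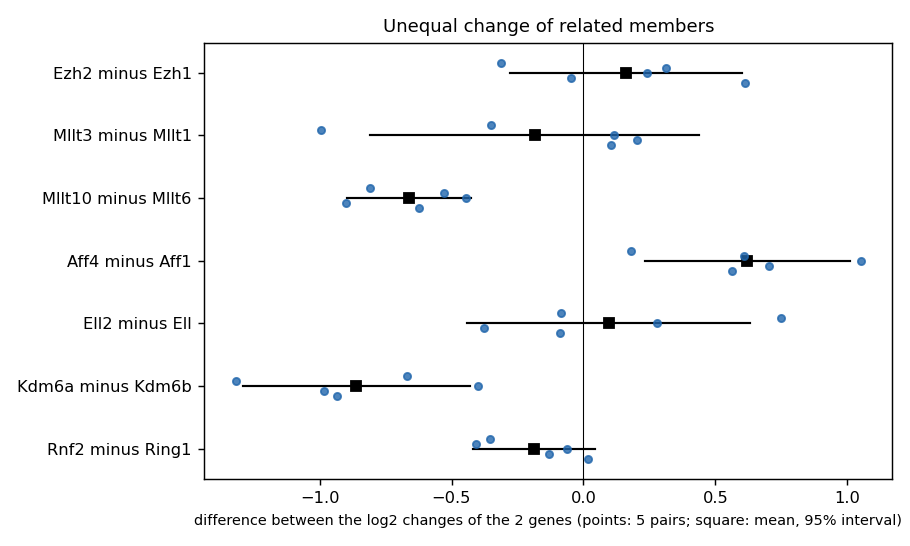
Difference between the log2 changes of 2 related members (horizontal axis) in each of the 5 pairs of samples (points), with the mean and its 95% interval (square and line). Mllt10 minus Mllt6 and Kdm6a minus Kdm6b are below 0 and Aff4 minus Aff1 is above 0 in all 5 pairs, and the other 4 lines cross 0.

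Of 105 measured genes of the same pathways that are not among the 44, 6 fell, 1 rose and 98 did not pass. That is 6.67% called, against 4.06% of all genes and 8.75% of genes with a mean log2 level above 5. Of the 105, 70 were below 0, against 8918 of all 18193 genes. Their median log2 change was -0.068, against -0.041 over the brighter genes. In the elongation list, Nelfcd, a subunit of the pausing factor NELF, fell by 0.52 log2 units (limma adjusted p = 0.0151), the 1 call of 26. In the Polycomb list 2 of 25 passed in opposite directions. Mtf2, which guides PRC2 to CpG islands, fell by 0.42 (adjusted p = 0.0305), from 702.5 to 898.2 in the controls to 580.1 to 656.1 with the shRNA, without overlap. Pcgf3, a RING partner of variant PRC1, rose by 0.55 (adjusted p = 0.011), from 36.64 to 47.79 in the controls to 54.15 to 71.37, also without overlap.

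In the demethylase list 1 of 19 passed, Phf2, a dim lysine 9 demethylase, which fell by 0.84 (limma adjusted p = 0.00772). In the list of other enzymes 3 of 19 fell. They were the lysine 20 methyltransferase Kmt5a (-0.83, adjusted p = 0.0223), the lysine 9 methyltransferase Suv39h2 (-0.72, adjusted p = 0.042) and the acetyltransferase Kat7 (-0.48, adjusted p = 0.0308). Suv39h2 was at -0.18 in pair 5 and -1.25 in pair 2. None of 16 further MLL complex genes passed by limma, and 5 had an unadjusted p under 0.05, against 18.0% of all genes. With trend and robust eBayes 1 passed the adjusted threshold, against 8.23% of all genes. Over the 105 genes the 7 calls became 15 with trend and robust eBayes and 0 in the unmoderated test.

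Of the members' 111 probe sets, 10 members had 1 and 34 had several. Among the 67 that were not the brightest, 14, from 12 genes, had a mean log2 level above 5, and 13 of the 14 had the same direction as the brightest. The exception was the second probe set of Ccnt1, at -0.011. The other 53 were at or below that level.

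**Figure D5:**
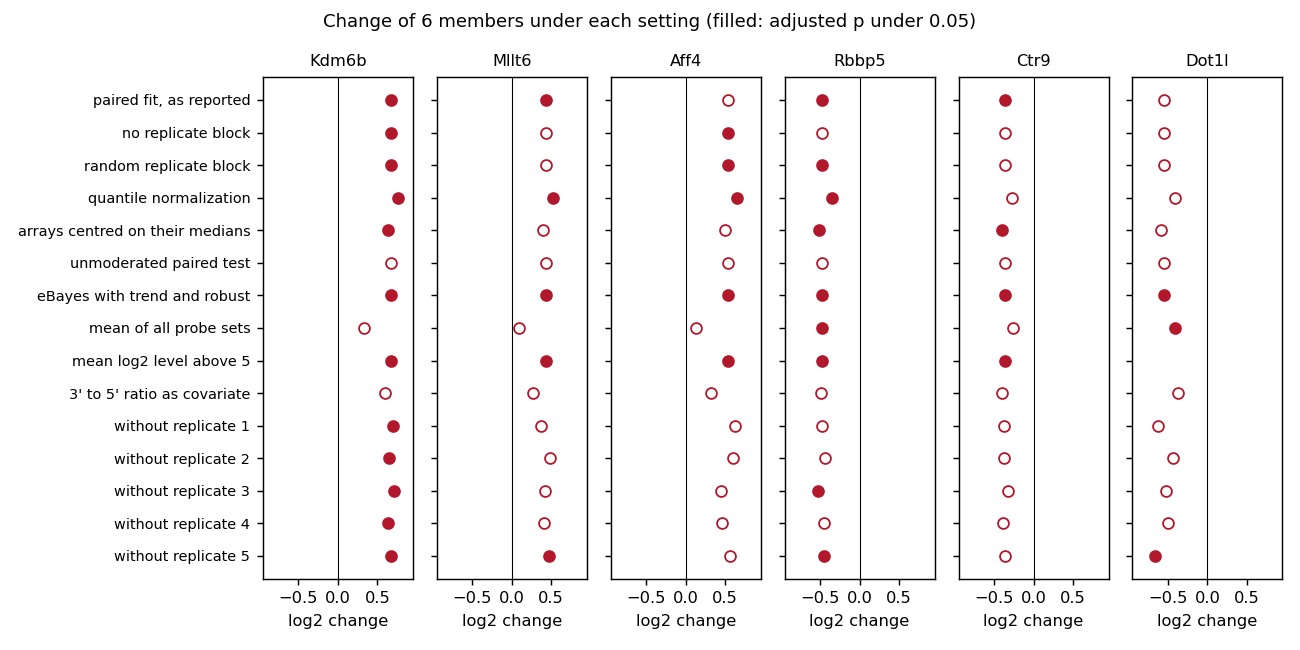
Log2 change (horizontal axis) of 6 members under the reported paired fit and 14 alternative settings (rows), filled where the adjusted p was under 0.05. Kdm6b is filled in all but 3 alternatives, and each of the 6 keeps its side of 0 in every setting in which it was tested.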

How the data were processed

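RNA of 10 samples was labelled with the one-cycle Affymetrix kit and hybridised to mouse expression arrays, per the labels' protocols. The deposited values are probe set intensities, made with RMA per the submitters' processing notes (the sources used here give no version). RMA usually gives log2 values, so the deposited linear intensities appear to have been raised back. They were log2-transformed here with no pseudocount. RMA tends to compress large folds, and the number of arrays limits precision.

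Of 45037 probe sets left after 64 controls, 34945 had 1 symbol, 932 several and 9160 none, the last kinds left out. Each of 18193 genes was represented by its brightest probe set. Groups were compared with limma 3.58.1 in R 4.3.3 (lmFit, eBayes, sample number as a fixed block, two-sided, Benjamini-Hochberg over all genes, threshold 0.05), after a test on simulated data. Pairing is stated in the labels. The deviations of same-numbered samples from their group means correlated at 0.600, 0.462, 0.339, 0.310 and 0.557 over 11215 probe sets. Some differently numbered samples did so as highly (0.579 for control 2 with shRNA 1, 0.428 for control 1 with shRNA 2, 0.276 for control 4 with shRNA 3), and samples 1 and 2 stood apart from 3 to 5 in both groups. Separate cultures are not stated, so p-values cover only the variation among these samples, possibly technical.

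The members and lists were chosen with earlier results of these data known. Full values are given for members past the threshold and for the largest difference and brightest member of each role; those of Psip1 and Aff4 were added after their values were seen. Of 113 other pathway genes listed, 105 were measured by name. Columns of no sample numbered 0.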

Additional observations from a re-analysis of the deposited data

Results flagged for a closer look

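Over the 88 sets of 5 arrays (44 members in 2 groups), 3 had an array far from the other 4, by the gap to the nearest array relative to the whole range (limit 0.71). Chance flags about 1 in 20 such sets, or 4.4 here. The Kmt2a intensity was 30.38 in control 4, against 18.34 to 20.29 in the other controls. Ash2l read 1403 in control 4, against 1230 to 1276. Kdm2b read 998.7 in control 5, against 1070 to 1097. None of these 3 genes passed the threshold.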

How the results depend on the processing

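Across 14 alternatives the 4 called members kept their direction, and 20 of the 40 others took the other sign at least once, none of them called there. Calls over all genes numbered 739 as reported, 500 without the replicate block and 1497 with trend and robust eBayes. They numbered 40 in the unmoderated test (2991 at an unadjusted p under 0.05) and 855 (4.70%) with the mean of all probe sets. There were 1305 among genes with a mean log2 level above 5. With the integrity ratio in the model there were 2 (1173 at an unadjusted p under 0.05). Leaving out 1 pair gave 243 to 929 (320, 286, 346 and 243 without pairs 1 to 4). Of the members, 4 were called as reported. The number was 2 without the replicate block (Aff4 and Kdm6b), 0 in the unmoderated test (11 at an unadjusted p under 0.05), 7 with trend and robust eBayes (adding Psip1, Dot1l and Aff4), 2 with the mean of all probe sets (Rbbp5 and Dot1l) and 0 with the integrity ratio (4 unadjusted). It was 1 without pair 1, 2 or 4 (Kdm6b), 2 without pair 3 and 4 without pair 5. The median of the Polycomb members was -0.095 as reported, 0.019 after quantile normalization, 0.00039 with the mean of probe sets, -0.013 among the brighter genes, 0.11 with the integrity ratio, and between -0.094 and -0.021 with 1 pair left out. The elongation median was 0.090 after quantile normalization, and the MLL complex median -0.12 with the mean of probe sets. The cause of these shifts was not tested.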

Other observations

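The pairs did not contribute alike. Of the 44 members, 17 (38.6%) had the lowest of their 5 differences in pair 2 and 18 (40.9%) in pair 4, against 2 (4.55%) in pair 5. Over all genes these shares were 23.8%, 21.0% and 19.2%. The highest difference was in pair 3 for 16 members (36.4%, against 18.1% of all genes) and in pair 5 for 13 (29.5%, close to the 28.3% of all genes). These shares were not set against genes of equal brightness. Chosen after their values were seen, Dot1l, Mllt3, Ell and Asxl1 were at -1.02, -0.99, -0.84 and -0.82 in pair 2, whereas in pair 5 they were at -0.07, 0.11, 0.11 and 0.22. The 4 called members had no such split. In pairs 2 and 5 Rbbp5 was at -0.61 and -0.55, Ctr9 at -0.33 and -0.35, Mllt6 at 0.23 and 0.28 and Kdm6b at 0.79 and 0.64. The paired fit that called them favours even differences, so this evenness is no separate evidence for the calls.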
